A study of Rattus norvegicus with 12 samples.

Results

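The genes described here are those that had an appreciable level in OC1 cells, were at least 1.5-fold lower on average with one siRNA against Bcl-2, siRNA 1928, and stayed close to the control level with the other, siRNA 1423. They number 124 of the 23978 genes in the count table. They were chosen on expected counts divided by the library total and multiplied by 1000000, as counts per 1000000 (CPM). A gene was a member if its mean over all 12 libraries was at least 10 CPM, if the log2 ratio of its mean CPM with siRNA 1928 to its mean CPM in control cells (the 1928 ratio) was -0.585 or lower, if the same ratio for siRNA 1423 (the 1423 ratio) lay between -0.15 and 0.15, and if each of the 4 siRNA 1928 libraries was lower than each of the 4 control libraries. Because these values made the choice, the levels in the 3 groups and every contrast between groups are a description of the members and carry no evidence of their own. What the choice did not use was the difference between replicate letters within groups and, for genes chosen in some libraries, their values in others.

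OC1 is a cultured line that the labels describe as cochlear sensory epithelium. Messenger RNA was sequenced with a strand-marking protocol after transfection with a negative control siRNA (genotype tag WT), with siRNA 1423 or with siRNA 1928 (genotype tag for a Bcl-2 knockdown), with 4 libraries per group and the letters A to D as replicates. All groups were transfected with a lipid reagent; the treatment tag names a plasmid, while the protocol and the descriptions name siRNA, which is followed here. Control replicate B has the extra letters NC in its description. No time after transfection is given in the sources used here, and nothing in the labels says that the letters stand for separate cultures, so p-values measure the spread between these libraries, which may be technical. Rat is the organism in the labels. HEI-OC1, a cochlear line derived from a mouse, has nearly the same name, and whether it is the line used is not given in the sources used here.

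Bcl-2 is a protein of the outer mitochondrial membrane that holds back apoptosis by binding its pro-death relatives. An siRNA is a short duplex, one strand of which is loaded into an Argonaute protein and guides it to matching mRNA, which is then cut. In sensory cells of the cochlea, mitochondrial apoptosis is one of the routes by which cells are lost with age, noise and ototoxic drugs.

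The file gives Ensembl gene IDs without symbols, and 0 of its IDs were found in the reference gene table used here. The members are therefore described as a group, by level, size of difference and spread, and 2 of them by ID: the member with the highest mean CPM and the member with the lowest 1928 ratio. For the same reason the level of Bcl2 in each library, the marker genes of cochlear and other cell types and the roles of the members were not analysed here, and no sequence is printed. CPM is not divided by transcript length, so an order of genes by CPM is one of reads, not of transcripts.

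Library totals ran from 15671546 to 23247593 expected counts (estimated read counts). The 18 pairs of libraries within groups differed by 1.93 to 5.89 times the sampling noise (chi-square over degrees of freedom), so none was a copy of another. Members had between 116 and 59100 expected counts in a library, so counting error was small for most of them.

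The choice narrowed as follows. Of the 9567 genes that averaged at least 10 CPM, called abundant below, 209 had a 1928 ratio of -0.585 or lower. Among these, 124 had a 1423 ratio within the limits, 80 were below -0.15 with siRNA 1423 as well and 5 were above 0.15. Members thus made up 59.3% of the abundant genes that were this much lower with siRNA 1928, and 1.30% of all abundant genes. The last condition removed none, since all 124 were already without overlap; 18.2% of abundant genes had all 4 siRNA 1928 libraries under all 4 control libraries. At least 2-fold lower with siRNA 1928 were 33 abundant genes, of which 18 were members and 15 were also below -0.15 with siRNA 1423.

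**Figure D1:**
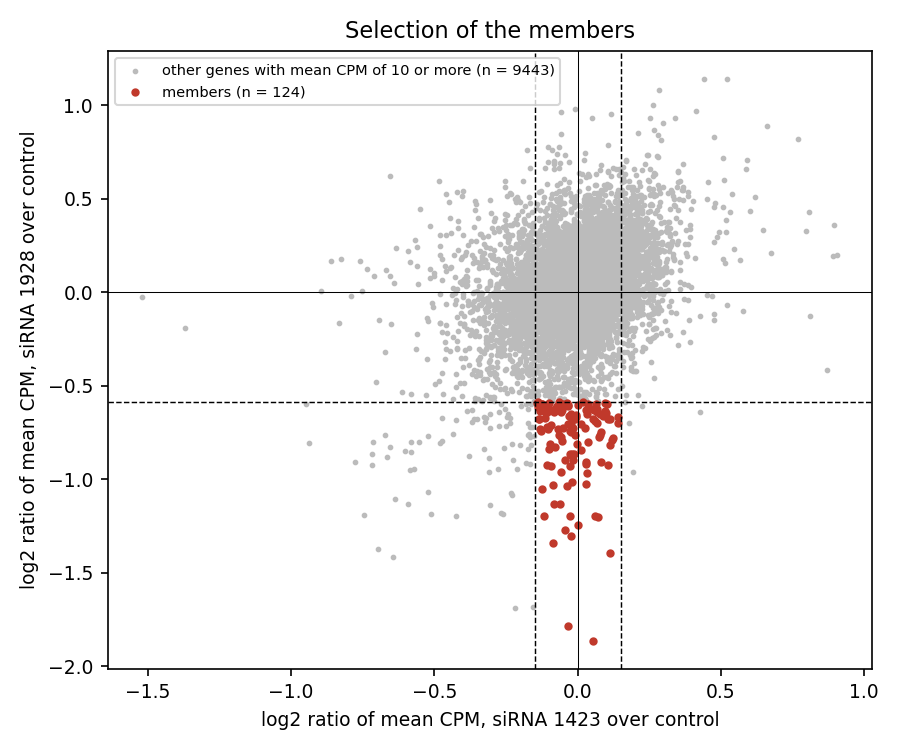
Each point is a gene that averaged at least 10 CPM, placed by the log2 ratio of its mean CPM with siRNA 1423 (x axis) and with siRNA 1928 (y axis) to the control mean. Dashed lines are the limits of the choice at -0.585, -0.15 and 0.15, and the 124 members (red) fill the area between them, reaching down to -1.86.

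The limits cut through a continuous cloud of genes. The members nearest the limit on the 1928 ratio lay at -0.586 and -0.588, and the nearest genes left out by it lay at -0.584 and -0.578. On the 1423 ratio the members nearest the limits were at -0.143 and -0.140 on the lower side and at 0.141 and 0.141 on the upper side, and the genes just outside were at -0.153 and -0.157 and at 0.167 and 0.179. One of those just outside the lower limit, at -0.157, had a 1928 ratio of -1.68, deeper than all but 2 members. The lowest members in level averaged 11.3 and 11.7 CPM, and the nearest genes under the limit of 10 CPM averaged 9.39 and 8.64 CPM.

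Most members were moderately lower with siRNA 1928. The 1928 ratio had a median of -0.70, with quartiles of -0.87 and -0.63 and a range from -1.86 to -0.59. In linear terms the median member kept 61.5% of its control level, the lowest 27.5% and the highest 66.6%. Of the 124, 61 had a ratio above -0.7, 24 lay between -0.8 and -0.7, 21 between -1 and -0.8, 16 between -1.5 and -1, and 2 below -1.5. The median over all 9567 abundant genes was 0.05, so the scale of library totals placed the typical gene slightly above control with siRNA 1928.

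The 2 members given by ID stood far above the others in CPM. ENSRNOG00000057569 had the highest mean over all libraries. Its CPM in control replicates A to D were 2613, 2399, 2137 and 2203, with siRNA 1423 they were 2309, 2285, 2047 and 2117, and with siRNA 1928 they were 1250, 1386, 1173 and 1102. The libraries of siRNA 1423 overlapped those of the control group over all letters, but within A and B, and within C and D, both siRNA 1423 libraries lay under both control libraries, with 1423 ratios of -0.13 and -0.06. The siRNA 1928 libraries lay far below all others. The means were 2338 ± 215, 2190 ± 128 and 1228 ± 121 CPM (SD, n = 4 each), so that siRNA 1928 left 52.5% of the control level. On the log2 scale of edgeR, with CPM scaled by trimmed means (TMM), the change was -0.99 (SE 0.0581) with siRNA 1928 and -0.09 (SE 0.0574) with siRNA 1423. That model had no term for the letters, and the change with siRNA 1423 was not called (edgeR adjusted p = 0.292). With the letter as a replicate block it was called, as given in the closing section.

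ENSRNOG00000022619 was the member with the lowest 1928 ratio. Its CPM in control replicates A to D were 2259, 2308, 2542 and 2571, with siRNA 1423 they were 2339, 2425, 2633 and 2642, and with siRNA 1928 they were 647, 652, 667 and 695. The siRNA 1423 libraries lay within or just above the control range, while the siRNA 1928 libraries lay close together under it. The means were 2420 ± 159, 2510 ± 151 and 665 ± 21.5 CPM (SD, n = 4 each), which left 27.5% of the control level with siRNA 1928. On the scale of edgeR the change was -1.92 (SE 0.0458) with siRNA 1928 and 0.06 (SE 0.0439) with siRNA 1423.

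**Figure D2:**
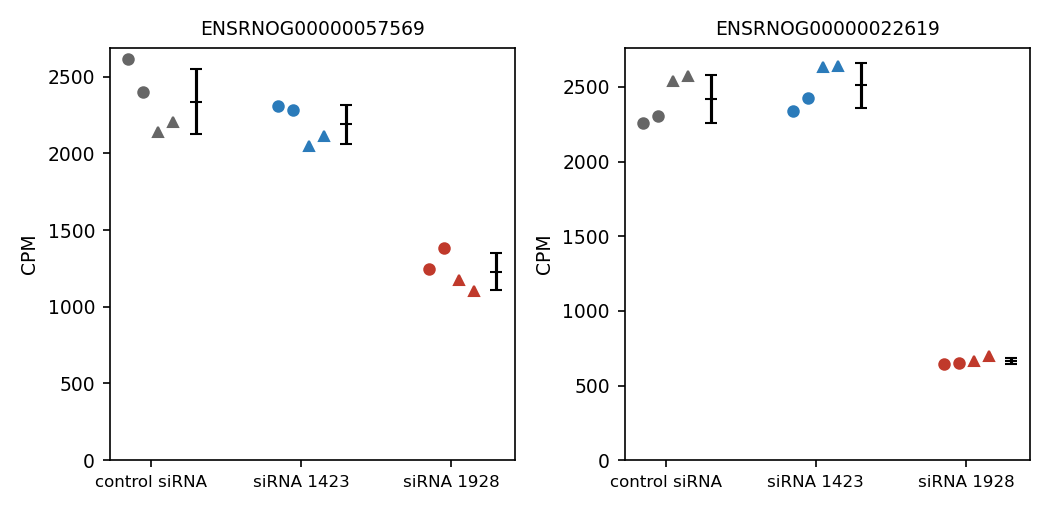
CPM of the 2 members given by ID in every library; circles are replicates A and B, triangles are C and D, and the black bar is the mean ± SD (n = 4). In both genes the siRNA 1928 libraries lie under all others, at 1102 to 1386 CPM for ENSRNOG00000057569 and at 647 to 695 CPM for ENSRNOG00000022619.

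Both genes also carried much of the members' reads. All members together took 1.76%, 1.76%, 1.75% and 1.76% of the counts in control replicates A to D, 1.73%, 1.74%, 1.73% and 1.73% with siRNA 1423, and 0.959%, 0.981%, 0.939% and 0.939% with siRNA 1928. The control and siRNA 1423 libraries sat within a narrow band, and the siRNA 1928 libraries were well apart from it. Summed over members, the mean fell from 17567 CPM in control cells to 9542 CPM with siRNA 1928, by 45.7%, against 17320 CPM with siRNA 1423. ENSRNOG00000022619 made up 21.9% of that drop and ENSRNOG00000057569 made up 13.8%. Without these 2 genes the other 122 took 1.28 ± 0.00587% of the control counts, 1.26 ± 0.00291% of those with siRNA 1423 and 0.765 ± 0.0102% of those with siRNA 1928 (SD, n = 4 each), a sum 40.3% lower with siRNA 1928.

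**Figure D3:**
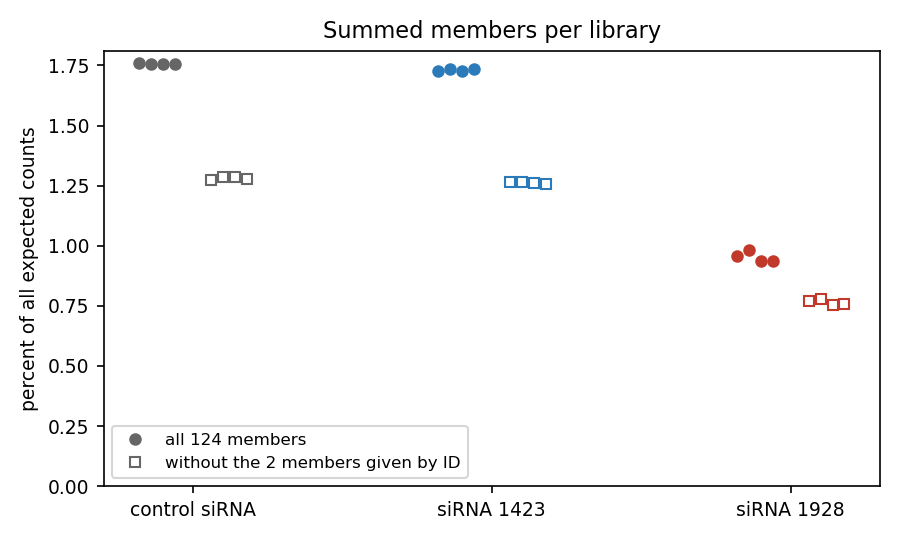
Percent of all expected counts that fell on the members in each library (filled circles, all 124; open squares, without the 2 members given by ID; points in a group run from replicate A to D). With siRNA 1928 the sum lies between 0.939% and 0.981%, against 1.75% to 1.76% in the control group.

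The 8 members with the highest mean CPM included both of these genes and accounted for 48.7% of the summed drop. The other 6 of them had control means of 356 to 763 CPM and means with siRNA 1928 of 229 to 502 CPM, with 1928 ratios from -0.76 to -0.59. The 12 members with the lowest 1928 ratio spanned the range of levels. Leaving out ENSRNOG00000022619, the 11 others had control means from 17.3 to 250 CPM and means with siRNA 1928 from 7.53 to 104 CPM, with ratios from -1.78 to -1.13. Their 1423 ratios ran from -0.12 to 0.11.

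Size and level were not ordered together. In 4 equal parts of 31 members by mean CPM, the median 1928 ratio was -0.65 (11.3 to 24.7 CPM), -0.81 (25.02 to 40.1 CPM), -0.70 (41.0 to 126 CPM) and -0.68 (129 to 1919 CPM). Members at least 2-fold lower numbered 2, 7, 3 and 6 in the same order. The members were spread over the abundant genes as a whole: of 4 equal parts of those genes by mean CPM, they made up 1.38%, 1.38%, 0.920% and 1.51% from the lowest part to the highest. Their median level of 40.5 CPM compares with 49.8 CPM over all abundant genes.

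Because these are bulk libraries, fewer cells that express a gene and less RNA per cell cannot be told apart. In every siRNA 1928 library all 124 members lay under their control mean, as the choice required. The size differed little between libraries. The median log2 ratio of members to the control mean was -0.70 in replicate A, -0.68 in B, -0.74 in C and -0.75 in D. Ratios of -0.585 or lower were reached by 105, 98, 112 and 108 members in the same order, and 2-fold differences by 16, 17, 18 and 22. The lowest of the 4 libraries was C for 37 members and D for 39, and A and B for 24 each. The gap between the lowest control library and the highest siRNA 1928 library had a median of 0.55 on the log2 scale and ran from 0.26 to 1.70. The choice required this gap and bounded the ratio of the means, so these values are a description only.

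**Figure D4:**
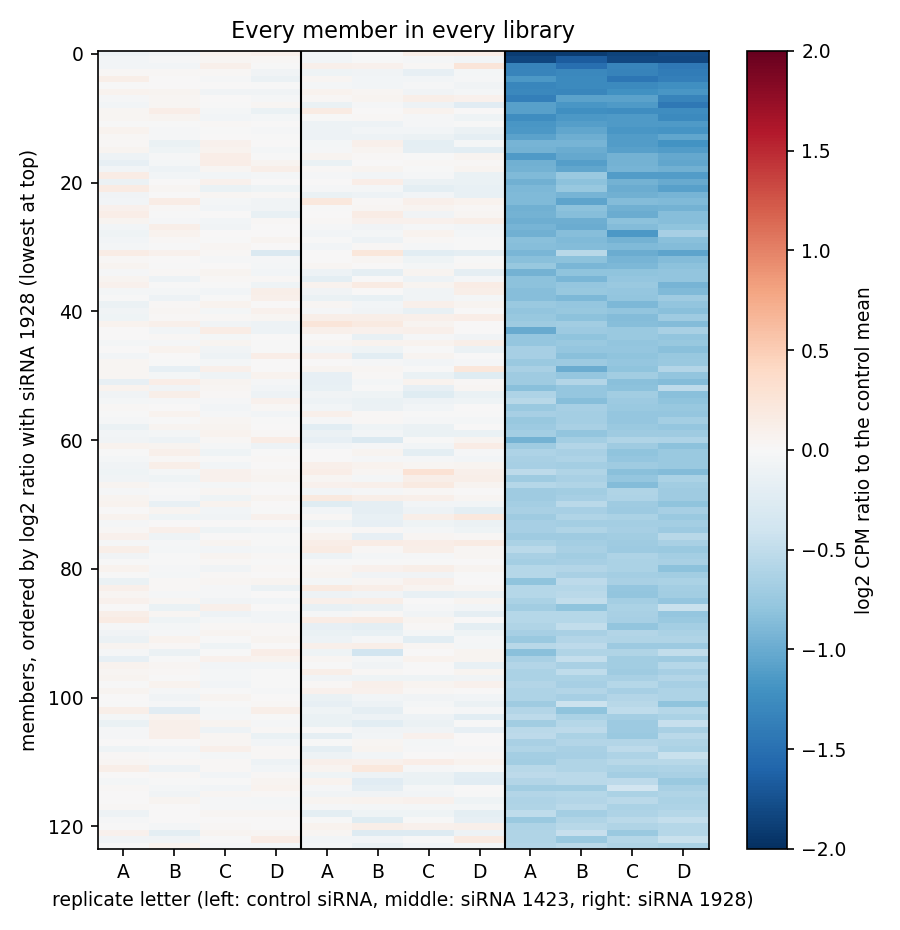
Log2 ratio of each member's CPM to its control mean (color) in every library; rows are the 124 members ordered by 1928 ratio, columns are replicates A to D of control siRNA, siRNA 1423 and siRNA 1928. As the choice required, the siRNA 1928 columns are blue throughout, with medians of -0.75 to -0.68. The siRNA 1423 columns stay near 0, also by the choice, with medians of -0.02 to -0.01.

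With siRNA 1423 the members were close to control, as the choice required. The 1423 ratio had a median of -0.03 and ran from -0.14 to 0.14, with 79 members below 0 and 45 above. In 108 members the siRNA 1423 libraries overlapped the control libraries. In 12 all 4 lay below every control library (15.2% of abundant genes did so) and in 4 all lay above (12.9% of abundant genes). By edgeR's quasi-likelihood test at an adjusted p under 0.05, 8 members were lower with siRNA 1423, with log2 changes of -0.14 to -0.09, and 4 were higher, with 0.08 to 0.15. In all tested genes 11.5% were called lower and 11.3% higher, and in abundant genes 13.8% and 14.1%. These counts came from the model without a term for the letters. With the letter as a replicate block more genes were called for siRNA 1423, as given in the closing section. The 8 had control means of 98.1 to 356 CPM and the 4 of 80.3 to 499 CPM, levels at which standard errors were small. Single libraries moved these counts: 5 were lower without control replicate C or D or without siRNA 1423 replicate D, 4 were lower without siRNA 1423 replicate A, and 2 were higher without control replicate A or siRNA 1423 replicate D. Nothing is read from the shares, since the choice bounded this ratio.

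All 124 passed edgeR's filter on low counts and were called lower with siRNA 1928 against control. There 23.3% of the 12731 tested genes and 28.7% of abundant genes were called lower. The members' median log2 change on the TMM scale was -0.76, with a range from -1.92 to -0.64 and standard errors from 0.0265 to 0.105. It is lower than the ratio of plain CPM because TMM factors were 1.02 to 1.03 with siRNA 1928 and 0.985 to 0.995 in the control group. TMM brought the median of all tested genes to 0.0034. Against siRNA 1423, all 124 were also called lower with siRNA 1928 (23.0% of tested and 28.4% of abundant genes were). The members' median was -0.78, with a range from -1.98 to -0.51. All siRNA 1928 libraries lay under all siRNA 1423 libraries in all 124, which was true of 17.9% of abundant genes, with a gap of 0.12 to 1.75 on the log2 scale. These contrasts share libraries with the choice and add no support to it.

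The same rule was also applied to some of the letters, and the values of the genes it found were read in the others. The limits of the rule had been set with all libraries known. Most genes found in this way were members, whose choice used all letters, so this is no separate test of the members. Shares of tested genes given beside the counts are over all tested genes, without regard to the size of their difference. In replicates A and B alone the rule found 121 genes, 105 of them members. In replicates C and D, which had no part in that choice, all 121 lay without overlap under the control libraries and were called lower with siRNA 1928 by edgeR (largest adjusted p = 3.9e-05), against 19.7% of tested genes called lower there. Their median log2 ratio was -0.71 where they were chosen and -0.74 in C and D, and 98 of them reached -0.585 again. Against siRNA 1423 in C and D, all 121 were called lower with siRNA 1928 (19.9% of tested genes), and with siRNA 1423 against control 9 were called lower and 1 higher (9.66% and 8.7% of tested genes). The 1423 ratio in C and D had a median of -0.02, ran from -0.26 to 0.20 and stayed within the limits for 106 genes.

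The reverse choice gave a like result. In C and D alone the rule found 119 genes, 102 of them members, and in A and B all 119 were without overlap and called lower with siRNA 1928 by edgeR (largest adjusted p = 0.0347, against 18.7% of tested genes called lower). The median ratio was -0.73 where they were chosen and -0.69 in A and B, with 94 at -0.585 or lower. Against siRNA 1423 in A and B, 118 were called lower (18.0% of tested genes), and 1 missed the threshold at an adjusted p of 0.0632. With siRNA 1423 against control in A and B, 2 were called lower and 3 higher (6.18% and 5.87% of tested genes), and the 1423 ratio ran from -0.33 to 0.16, within the limits for 107. If the letters do not stand for separate cultures, the values in the other letters are repeat measurements of the same cells.

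The members differed between letters within groups. Replicates A and B stood apart from C and D in each group, a division seen across all genes and known before the members were chosen. After removal of the group means, the first component of the members' log2 CPM held 31.1% of their variance, with loadings of 0.18 to 0.40 for all A and B libraries and -0.44 to -0.16 for all C and D libraries. No matching share for all abundant genes is given here, so it is not read as particular to the members. When this division was added to the model, 16 members (12.9%) were called by edgeR, 8 lower and 8 higher in C and D, with absolute log2 differences of 0.07 to 0.27. Of all tested genes 8.76% were called (5.18% lower and 3.58% higher), and of the abundant genes 10.6%, so the members' share was near that of other genes of their level. Members called higher numbered 5 without control replicate A or B or siRNA 1928 replicate B or D, 4 without siRNA 1423 replicate B, and 2 without control replicate D or siRNA 1423 replicate D, and those called lower numbered 5 without control replicate C.

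Both members given by ID were among the 16, in opposite directions. ENSRNOG00000057569 was lower in C and D by a log2 difference of -0.18 (SE 0.0231, edgeR adjusted p = 1.01e-05), and in each of the 3 groups both its C and D libraries lay under its A and B libraries. ENSRNOG00000022619 was higher in C and D by 0.14 (SE 0.018, edgeR adjusted p = 1.29e-05), again in each of the 3 groups. These differences were small beside those between siRNA 1928 and control in the same genes.

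Over the members as a set, the siRNA 1928 ratio was of like size in both pairs of letters, as the choice favored. Over the 124 members its median was -0.69 in A and B and -0.74 in C and D, and 109 and 115 reached -0.585, with 100 doing so in both. The choice bounded the ratio over all 4 letters, so these medians and counts are a description only. The ratio was lower in C and D for 75 members and lower in A and B for 49, with differences of -0.42 to 0.24 and a median of -0.03, against a median of -0.0028 over abundant genes. For the difference between the pairs of letters in the response to siRNA 1928, an interaction term in edgeR called 0 members; 10 (8.06%) had an unadjusted p under 0.05, against 6.06% of tested genes, of which 1 (0.00785%) was called. For siRNA 1423 the same term called 0 members and 0 genes, with 7 members (5.65%) and 4.25% of genes at an unadjusted p under 0.05. Standard errors of these terms had medians over members of 0.097 for siRNA 1928 and 0.090 for siRNA 1423. An absence of calls therefore does not show equal responses. In ENSRNOG00000022619 the ratio was -1.81 in A and B and -1.91 in C and D, and in ENSRNOG00000057569 it was -0.93 in both.

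**Figure D5:**
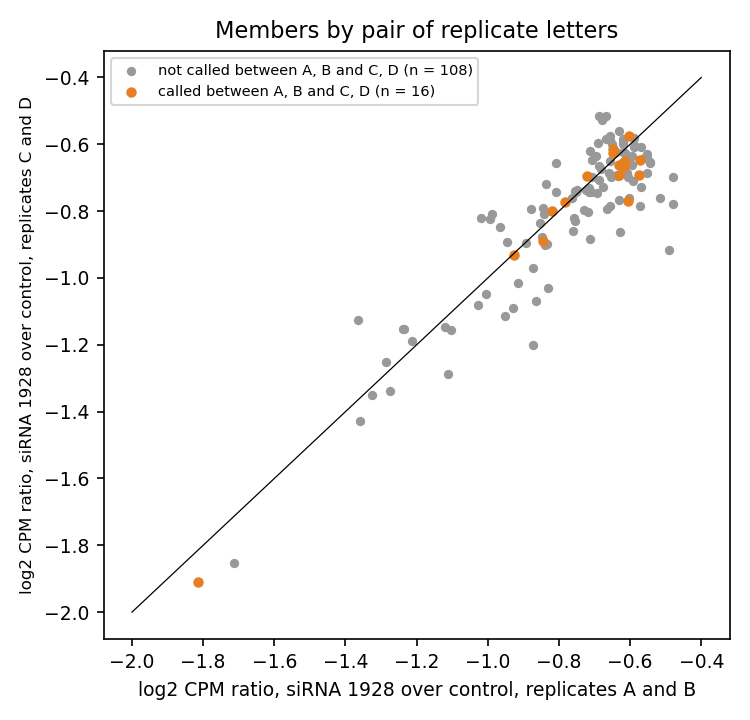
Log2 CPM ratio of siRNA 1928 to control for each member in replicates A and B (x axis) and in C and D (y axis), with the line of equal values; orange marks the 16 members that edgeR called between the pairs of letters. Points lie along the line, with medians of -0.69 and -0.74.

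Replicate spread within groups was close to that of other abundant genes in control cells and a little wider after siRNA 1928, by values that were not tested. The median SD of log2 CPM over 4 libraries was 0.066 for members and 0.064 for all abundant genes in control cells, 0.057 and 0.061 after siRNA 1423, and 0.075 and 0.060 after siRNA 1928. The largest SD of a member was 0.198, 0.203 and 0.222 in the same order of groups. The members' median level was 45.3 CPM in control cells and 28.9 CPM with siRNA 1928, and spread was not compared at matched level. The biological coefficient of variation fitted by edgeR had a median of 3.99% in members, from 2.55% to 9.21%, against 3.77% over abundant genes. Deviations within groups were correlated about as loosely among members as among other genes. Over 7626 pairs of members the correlation of deviations from group means had a median of 0.011 and a 10th to 90th percentile range of -0.50 to 0.51, against a median of 0.004 and a range of -0.49 to 0.50 over all pairs of abundant genes. These are descriptions over 12 libraries whose pairs of letters the genes share.

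Values that were not whole numbers were about as common in members as in other genes. Such values arise when a counting program divides reads between features, and 117 members (94.4%) had one in at least 1 library, against 96.5% of abundant genes; of all values, 58.4% and 56.5% were not whole. The other 7 members had whole counts in all 12 libraries. How the reads were divided is not given in the sources used here, so members with near-identical copies elsewhere carry an uncertainty that was not measured.

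Neighbouring sets give a scale for the members. The 80 genes that met the same conditions but lay under -0.15 with siRNA 1423 had a median 1928 ratio of -0.80 (range -1.69 to -0.60) and a median 1423 ratio of -0.31, and 18.8% of them were at least 2-fold lower, against 14.5% of members. The mirrored conditions, at least 1.5-fold higher with siRNA 1928 and within 0.15 of control with siRNA 1423, were met by 41 genes, with a median 1928 ratio of 0.67, a highest value of 0.98 and none at 2-fold. With CPM scaled by TMM the numbers were 170 lower and 28 higher, so their balance moved with the scaling while the lower set stayed the larger. Of the 80 and the 41 genes, 15.0% and 4.88% were called between the pairs of letters. The choice set the limits on the ratios of each set. Differences between the sets in number, in the share at 2-fold and in the share called between the pairs of letters were not tested.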

How the data were processed

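The deposited values are expected counts per Ensembl gene ID, 1 column per library and 0 columns of other samples. Their unit follows from the numbers, of which 71.3% were whole (tolerance 1e-06) with totals that differed between libraries. Per the submitters' processing notes the build is mRatBN7.2, and the tools include DESeq2 1.24.0, fastp 0.21.0 and bcl2fastq 2.20. No aligner or counting program is given there. The members and all lists were chosen with earlier results of these data known. The 47 gene lists and 9 promoter motifs prepared could not be assigned to gene IDs and were not used. The rule for named genes asked for the highest mean CPM, the lowest 1928 ratios and list members; without symbols, only the first of each of the former was printed by ID.

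Counts were rounded, filtered with filterByExpr (minimum count 10, minimum total 15), scaled by TMM and tested with edgeR 4.0.16 (quasi-likelihood F test, R 4.3.3) in 1 model of 12 libraries, with Benjamini-Hochberg adjustment over all 12731 tested genes and a threshold of 0.05. Standard errors came from the F statistic. Levels and ratios are plain CPM unless TMM is named. The fits were also run on simulated counts, in which no gene carried both a group difference and a difference between pairs of letters. The outcome is not given here, and no support is drawn from it. DESeq2 1.42.0, other scalings, filters and left-out libraries were tried as alternatives. The choice of genes in one pair of letters with values from the other, the interaction term and the mirrored rule under other scalings were added after results were seen. Figures were drawn with matplotlib 3.10.9.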

Additional observations from a re-analysis of the deposited data

How the results depend on the processing

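All 124 members were called lower with siRNA 1928 against control, and against siRNA 1423, under library size alone, no filter, DESeq2, the replicate block, each left-out library and each pair of letters alone; as these libraries chose the members, this says nothing about stability. The rule found 117 to 126 genes when 1 library was left out, 130 with a floor of 5 CPM and 102 with a floor of 20 CPM. With CPM scaled by TMM it found 170 genes and by DESeq2 size factors 172, in both cases with all 124 members among them. Members called with siRNA 1423 numbered 4 to 9 lower and 2 to 4 higher without 1 library, 0 lower and 3 higher in replicates A and B alone, and 8 lower and 1 higher in C and D alone. Over all genes A and B alone gave 1535 calls and C and D alone 2361, against 2903. Members called higher in C and D numbered 5 with library size alone and with DESeq2, and 2 to 9 without 1 library; those called lower numbered 5 to 10. The cause was not tested. The summed drop with siRNA 1928 was 40.3% without the 2 members given by ID. Deviations from group means correlated at 0.03 to 0.13 (median 0.08) between same-letter libraries of different groups, at -0.03 to 0.16 (median 0.07) between other libraries of the same pair of letters (A and B, or C and D) and at -0.17 to 0.04 (median -0.08) across the pairs, and 5 of 12 libraries correlated best with their own letter. The letters thus share the division into A and B against C and D; not every same-letter correlation was over 0.1, so single letters were not taken as pairs. With the letter as a replicate block, 6174 genes were called for siRNA 1928 and 3365 for siRNA 1423, and ENSRNOG00000057569 passed the test with siRNA 1423 (log2 change -0.09, edgeR adjusted p = 0.0356). The alternatives on one pair of letters as the source of the choice, on the mirrored rule and on the summed drop were chosen after seeing the data.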
